A study of Mus musculus with 3 samples.

Results

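The genes described here encode the light-detection machinery of rod and cone photoreceptors, in mouse retina 2 hr or 2 days after an injection into the vitreous of the eye. They were chosen by name: 39 genes were listed as 12 rod genes, 11 cone genes and 16 genes used by both cell types, and a probe set annotated to that symbol alone was found for 38 of them among the 22180 genes of the array. The 1 gene not found was the rod gene Nr2e3, which is not analysed here. The 38 therefore held 11 rod, 11 cone and 16 shared genes, each read by 1 probe set. Retinae of C57 mice were pooled, 5 to 6 per array, and hybridised to 3 Affymetrix whole-transcript arrays. The groups were AP control at 2 hr, where AP is not spelled out by the labels, cavtratin at 2 hr, a peptide that enters cells and carries the caveolin-1 scaffolding domain, and Cav1-shRNA at 2 days, a short hairpin RNA named for the caveolin-1 transcript. The labels give no age, sex or genotype beyond the strain. Each group was 1 array of pooled tissue, so no test could be run, no error between animals exists, and every difference is between arrays. Differences from the Cav1-shRNA array to the other arrays join the agent with a later time, and these cannot be told apart.

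Light activates an opsin in the outer segment, which switches on the G protein transducin. Transducin releases the inhibitory gamma subunit from the cyclic GMP phosphodiesterase, cyclic GMP falls, and the cyclic nucleotide-gated channels close. Recovery needs phosphorylation of the opsin, capping by arrestin, hydrolysis of GTP on transducin by the RGS9 complex and renewed synthesis of cyclic GMP under calcium control. Rods, which serve dim light and make up most photoreceptors of the mouse, and cones, which serve daylight and colour, build the cascade from separate paralogs for many of these steps.

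On the 3 arrays the phototransduction genes had nearly the same values. None of the 38 was 2-fold apart in any of the 3 comparisons, and the largest difference in size was that of cone arrestin, Arr3, 0.22 lower on the log2 scale in Cav1-shRNA than in AP control. Among genes at or above the expression floor of 6.50, the median over probe sets with 1 symbol, 1.46% were at least 2-fold apart between cavtratin and AP control, 0.464% between Cav1-shRNA and AP control, and 0.819% between Cav1-shRNA and cavtratin. All 38 lay at or above the floor on every array. No member reached 0.25 in size in any comparison.

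The small differences that were present in cavtratin all had 1 direction in the deposited values, though not after centring or quantile normalization. Compared with AP control, 23 of the 38 genes, or 60.5%, were lower in cavtratin, 15 were exactly equal and 0 were higher. Equal means here and below that the deposited values tie, and the processing behind them is not stated. Among genes at or above the floor, 25.9% were lower, 54.5% exactly equal and 19.6% higher, and among the 1117 genes with a mean value of at least 10, where 28 to 29 of the 38 lay on each array, the shares were 33.6%, 47.1% and 19.3%. The 23 to 0 split depends on the scaling. It was 19 lower and 19 higher after each array was centred on its median, 32 and 6 after quantile normalization, and again 23 and 0 after subtraction of a loess trend. All genes at or above the floor were 23.9% lower and 76.1% higher after centring, and 80.05% and 19.8% after quantile normalization. The 32 of 38 thus lay near the general share of that scaling. Counting only differences of at least 0.1, about 6.7% in linear terms, 7 genes, or 18.4%, were lower in cavtratin and 0 higher, against 6.15% lower and 8.4% higher among genes at or above the floor. Under the other scalings that count was 6, 9 and 7 lower, each with 0 higher. The shares lower by as much over genes at or above the floor were then 5.66%, 6.96% and 6.15%.

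**Figure D1:**
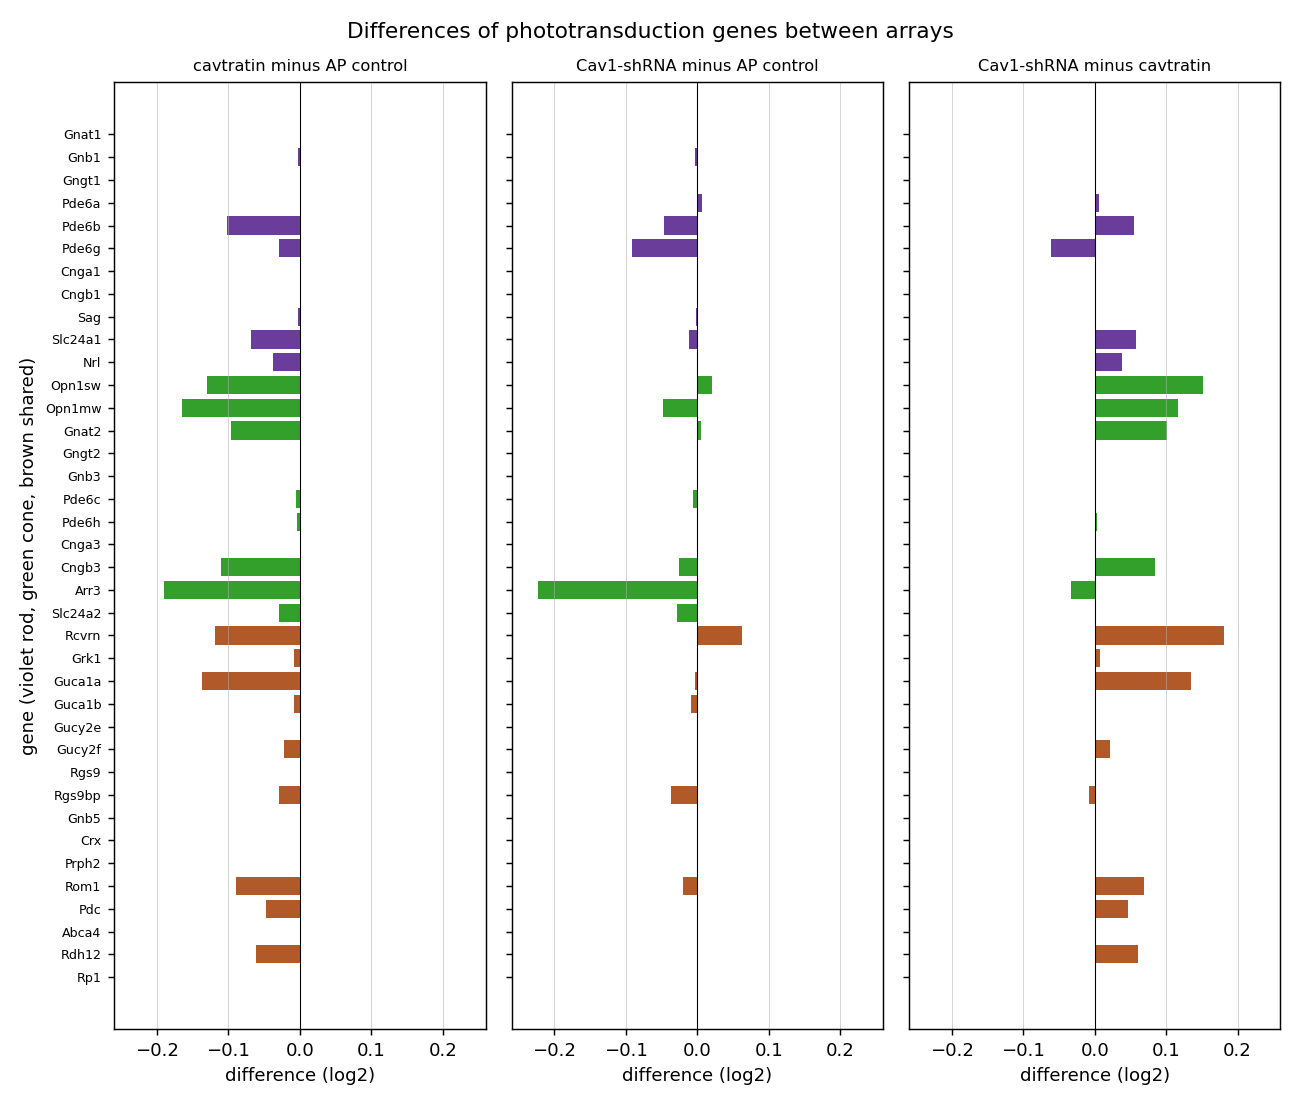
Differences of the 38 genes on the log2 scale for cavtratin minus AP control, Cav1-shRNA minus AP control and Cav1-shRNA minus cavtratin, 1 bar per gene, with 1 array per group and so no error bars. In the left panel, in the values as deposited but not after centring or quantile normalization, every bar points to lower or is absent, with Arr3 at −0.19 and Opn1mw at −0.17 the longest, and in the middle panel Arr3 at −0.22 stands apart from the other genes.

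The 4 sequences that follow are the 250 bases upstream of the annotated start of the 3 genes with the largest differences in cavtratin among all members, Arr3, Opn1mw and Guca1a, and of Crx, a photoreceptor transcription factor that had the same value on all 3 arrays. They come from RefSeq, build GRCm38.p6, and are written 5′ to 3′ on the strand of the gene. Capitals mark TAATCC, the core bound by Crx, on either strand, so that GGATTA is the same core on the opposite strand. No letter is in capitals where it was not found.
Arr3, chrX:100605247-100605496, plus strand: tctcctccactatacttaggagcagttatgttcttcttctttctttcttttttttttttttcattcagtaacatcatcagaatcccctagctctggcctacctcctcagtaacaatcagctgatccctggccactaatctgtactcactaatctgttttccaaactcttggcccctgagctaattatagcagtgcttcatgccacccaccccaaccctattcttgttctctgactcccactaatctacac
Opn1mw, chrX:74127216-74127465, plus strand: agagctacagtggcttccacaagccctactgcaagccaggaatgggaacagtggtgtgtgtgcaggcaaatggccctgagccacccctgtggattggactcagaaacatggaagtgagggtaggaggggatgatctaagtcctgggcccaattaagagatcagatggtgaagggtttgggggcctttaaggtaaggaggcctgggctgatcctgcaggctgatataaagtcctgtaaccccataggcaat
Guca1a, chr17:47400607-47400856, minus strand: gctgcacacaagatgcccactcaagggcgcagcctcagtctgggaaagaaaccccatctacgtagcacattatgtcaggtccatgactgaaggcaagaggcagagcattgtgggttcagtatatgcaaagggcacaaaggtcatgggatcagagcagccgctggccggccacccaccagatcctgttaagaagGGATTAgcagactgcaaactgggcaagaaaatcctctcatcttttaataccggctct
Crx, chr7:15879956-15880205, minus strand: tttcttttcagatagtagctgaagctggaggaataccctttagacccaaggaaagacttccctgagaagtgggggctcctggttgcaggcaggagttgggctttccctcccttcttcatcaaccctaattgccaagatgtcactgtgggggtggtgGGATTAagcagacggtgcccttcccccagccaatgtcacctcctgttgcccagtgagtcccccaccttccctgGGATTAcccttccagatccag

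Promoter windows were used for 28 of the 39 genes, 30 windows in all, since Cnga3 and Slc24a2 each have 2. Member windows on 1 chromosome were left out by the search, while the set of all windows kept every chromosome. TAATCC was present on either strand in 11 of the 30, which is 36.7%, against 6.25% of all 32851 windows of the same length. By cell type it was in 4 of 9 rod, 1 of 9 cone and 6 of 12 shared windows. TGCTGA, a sequence like part of the site of the rod factor Nrl, was in 5 of the 30, which is 16.7%, against 16.1% of all windows, and no matches of the 2 motifs overlapped. The 11 genes with TAATCC were Sag, Gnat2, Abca4, Cnga1, Gngt1, Crx, Cngb1, Gnb5, Gucy2e, Guca1a and Gucy2f. In cavtratin 4 of these 11 were lower than in AP control and 7 equal, with a median difference of 0, and of the 16 measured genes whose windows lack TAATCC 13 were lower and 3 equal, with a median of −0.042, beside 25.9% lower among all genes reaching the floor and 33.6% among those with a mean of at least 10. The 2 sides of this split also differ in cell type, since 1 of 9 cone windows holds TAATCC. Rod and shared genes lie on both sides, and the motif was not compared within a cell type. A match is a description of the letters and says nothing about binding in these retinae.

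Cone opsins, the light-absorbing proteins of cones, were lowest in the cavtratin array. The short-wavelength opsin Opn1sw was at 11.75 in AP control, 11.62 in cavtratin and 11.77 in Cav1-shRNA. The medium-wavelength opsin Opn1mw (probe set 17535722) was at 10.67, 10.50 and 10.62 in the same order. In cavtratin Opn1sw was thus 8.65% and Opn1mw 10.8% below AP control in linear terms, which take the deposited values as log2. In the Cav1-shRNA array Opn1sw was 0.020 above AP control and Opn1mw 0.048 below it.

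Arr3 (probe set 17536548), the cone arrestin that ends signalling by the opsin, was high in AP control and low in both other arrays. Its values were 10.003 in AP control, 9.813 in cavtratin and 9.780 in Cav1-shRNA, which puts it 12.3% and 14.3% below AP control. Both of these comparisons use the same AP control array. Sag, the arrestin of rods that cones also hold, was at 12.53 on every array, with a difference of −0.0025 in cavtratin and Cav1-shRNA alike. Arr3 was the 1 member lower by at least 0.1 in Cav1-shRNA than in AP control, a call met by 5.71% of all genes reaching the floor, with 8.25% higher by as much.

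Of the 6 transducin subunits, 4 were equal on all arrays, and Gnb1 and Gnat2 were not. Gnat1, the rod alpha subunit, was at 13.19 on all 3 arrays, close to the highest value of any probe set, 13.41 in AP control and 13.42 in the others, and whether such values are compressed was not tested. Its cone paralog Gnat2 was at 9.09 in AP control, 8.99 in cavtratin and 9.09 in Cav1-shRNA, so that it was 6.44% below AP control in cavtratin. The gamma subunits Gngt1 of rods and Gngt2 of cones were each equal on all arrays, at 9.69 and 6.69. Of the beta subunits, Gnb3, used by cones and also by ON bipolar cells, was at 11.34 throughout, and Gnb1, used by rods and widely elsewhere, was at 13.15 in AP control and 13.14 in both other arrays.

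The phosphodiesterase degrades cyclic GMP, and its rod subunits gave the largest differences among rod genes. Pde6b, a catalytic subunit of rods, was at 12.28 in AP control, 12.18 in cavtratin and 12.23 in Cav1-shRNA. Pde6g, the inhibitory gamma subunit of rods, was at 12.21, 12.18 and 12.12, lowest in the Cav1-shRNA array. Pde6a, the partner of Pde6b, was at 12.24, 12.24 and 12.25. The partners in 1 enzyme thus did not share an order, with Pde6b lowest in cavtratin and Pde6a equal there. The cone catalytic subunit Pde6c was at 9.94 in AP control and 9.93 in both other arrays, and the cone gamma subunit Pde6h was at 7.70 on all 3, lower by 0.0037 in cavtratin.

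Channels that carry the light-sensitive current were mostly equal. Cnga1 and Cngb1, the rod channel subunits, were at 11.69 and 10.53 on every array. Cnga3, the cone alpha subunit, was at 6.54 on every array, just above the floor of 6.50. The cone beta subunit Cngb3 was the exception, at 9.50 in AP control, 9.39 in cavtratin and 9.48 in Cav1-shRNA. Slc24a1 and Slc24a2, the sodium/calcium-potassium exchangers of rods and cones that remove calcium, were lower in cavtratin by 0.069 and 0.029, and in Cav1-shRNA by 0.011 and 0.029.

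**Figure D2:**
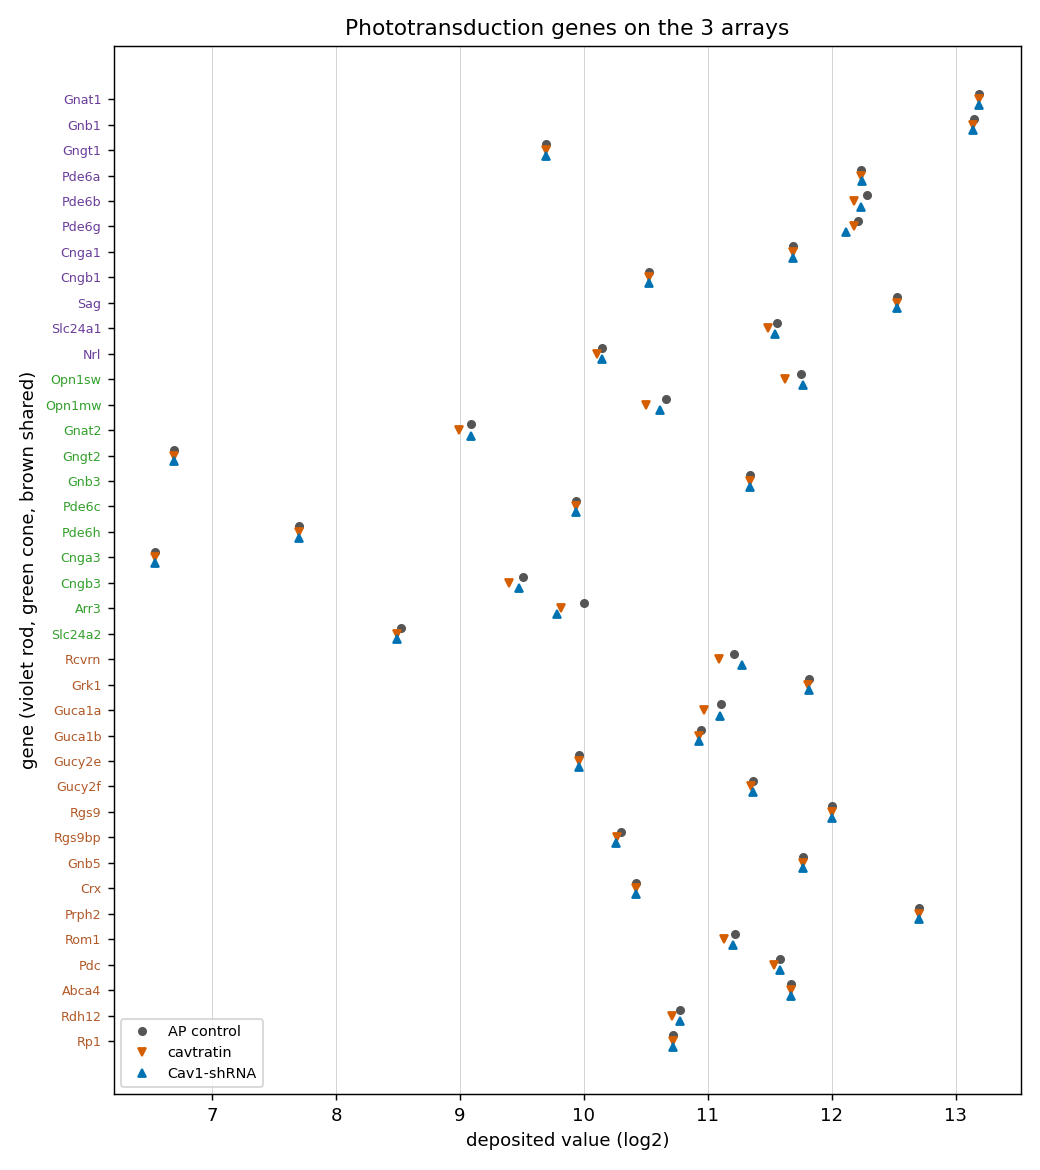
Deposited log2 values of the 38 genes on the arrays of AP control, cavtratin and Cav1-shRNA, 1 point per array, with rod, cone and shared genes in violet, green and brown. The points of most genes overlap, those of Arr3 do not (10.003, 9.813 and 9.780), and distances between genes carry no meaning because each is read by its own probe set.

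Calcium feedback and recovery are run by proteins that rods and cones share. Rcvrn, recoverin, a calcium sensor that restrains the opsin kinase, was at 11.21 in AP control, 11.09 in cavtratin and 11.27 in Cav1-shRNA, the largest difference between the last 2 arrays among all members, 0.18. Guca1a, an activator of guanylate cyclase at low calcium, was at 11.10, 10.97 and 11.10, so that cavtratin was 9.10% below AP control. Both calcium sensors were lowest in the cavtratin array. Guca1b, the second activator, was at 10.94 in AP control and 10.93 in both other arrays. The guanylate cyclases that make cyclic GMP differed less, with Gucy2e at 9.96 throughout and Gucy2f at 11.37, 11.35 and 11.37.

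The opsin kinase Grk1 was at 11.82 in AP control and Cav1-shRNA and 11.81 in cavtratin. Of the complex that speeds GTP hydrolysis by transducin, Rgs9, the catalytic member, was at 12.00 and Gnb5, its beta subunit, at 11.77 on all 3 arrays, while the membrane anchor Rgs9bp was at 10.30, 10.27 and 10.26. Pdc, phosducin, which binds transducin beta and gamma subunits, was at 11.58, 11.53 and 11.58. The kinase and this complex therefore stayed within 0.037 of AP control on both other arrays, and Pdc within 0.047.

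Genes of outer segment structure and of retinoid handling were equal or lowest in cavtratin. Prph2, the rim protein peripherin-2, was at 12.70 in AP control, 12.70 in cavtratin and 12.71 in Cav1-shRNA, whereas its partner Rom1 was at 11.22, 11.13 and 11.20. Rp1, a microtubule protein of the axoneme, was at 10.72 throughout. Abca4, the transporter that clears retinal from discs, was at 11.67 throughout, and Rdh12, a retinol dehydrogenase, was at 10.78, 10.71 and 10.78. Both Rom1 and Rdh12 were lowest in cavtratin, by 5.98% and 4.13% against AP control. The transcription factors Crx, which drives rod and cone genes, and Nrl, which sets rod fate, were at 10.42 throughout and at 10.15, 10.11 and 10.15.

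Over the whole set, 13 of 38 genes had the same value on all 3 arrays to within 1e-09, which is 34.2%, against 43.8% of genes with a mean at or above the floor and 34.7% of those with a mean of at least 10. The share of ties among members was thus close to that of equally bright genes. Why separate arrays tie was not tested, and a tie does not show that expression was unchanged. AP control held the highest value alone in 14 of the 38 genes, or 36.8%, against 20.7% of genes with a mean of at least 10. It held the lowest alone in 0, against 13.1%. Cavtratin held the lowest alone in 15, or 39.5%, against 19.9%, and the highest alone in 0, against 10.1%. Cav1-shRNA held the highest alone in 5, or 13.2%, and the lowest alone in 3, or 7.89%, against 18.4% and 14%. These ranks are those of the deposited values and depend on the scaling. After centring, 19 of the 38 were higher than AP control in cavtratin and 36 in Cav1-shRNA.

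By cell type, the median and mean of cone genes lay further from AP control in cavtratin than those of rod genes, a difference that was not tested. Matched paralogs had no such lean by count. Of 10 rod and cone pairs, with Pde6c in 2 of them, the cone gene had the lower difference in 4, the rod gene in 4, and 2 pairs were equal. By size, the cone difference minus the rod difference was −0.19, −0.11, −0.096 and −0.0060 in the first 4. In the 4 pairs with the rod gene lower it was 0.096, 0.040, 0.026 and 0.0030. Under the 3 other scalings the cone median stayed between −0.038 and −0.022, while the rod median turned to 0.0043 after centring. Of the 11 cone genes 8 were lower in cavtratin and 3 equal, and they had a median difference of −0.029 (mean −0.066). Of the 11 rod genes 6 were lower and 5 equal, with a median of −0.0025 (mean −0.022). Of the 16 shared genes 9 were lower and 7 equal, with a median of −0.0084 (mean −0.033). After centring, the counts lower and higher were 6 and 5 for cone, 4 and 7 for rod, and 9 and 7 for shared genes. Over all genes at or above the floor, 25.9% were lower as deposited and 23.9% after centring. For genes with a mean of at least 10 these shares were 33.6% and 29.6%. The median over all genes at or above the floor was 0 as deposited and their mean 0.029. Differences of at least 0.1 were found in 4 cone genes, Arr3, Opn1mw, Opn1sw and Cngb3, in 1 rod gene, Pde6b, and in 2 shared genes, Guca1a and Rcvrn. All of these were lower, a call met by 6.15% of genes at or above the floor. Just short of 0.1 were Gnat2 at −0.096 and Rom1 at −0.089. In summed linear signal the cavtratin array had 0.940 times that of AP control over cone genes, 0.987 over rod genes and 0.981 over shared genes. The tissue was whole retina, so fewer cells of a type and less RNA per cell cannot be told apart.

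These differences were set beside those between probe sets of the same gene on the same arrays. Several probe sets reached the floor for 271 genes. In these, the differences between cavtratin and AP control of 2 probe sets of the same gene had an SD of 0.167, with a median absolute gap of 0.040. Shared equally and independently by the 2 probe sets, this is an SD of 0.118 for the difference of 1 probe set. Arr3, Opn1mw, Guca1a and Opn1sw lay beyond it, Rcvrn lay at it, with 0.118 in size, and the other 33 members lay within it. For Cav1-shRNA minus AP control this SD was 0.0892, with Pde6g and Arr3 beyond it. For Cav1-shRNA minus cavtratin it was 0.113, with Rcvrn, Guca1a, Opn1sw and Opn1mw beyond it. The SD is a spread between probe sets, not between arrays or animals, and the genes behind it were not matched to the members in brightness.

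**Figure D3:**
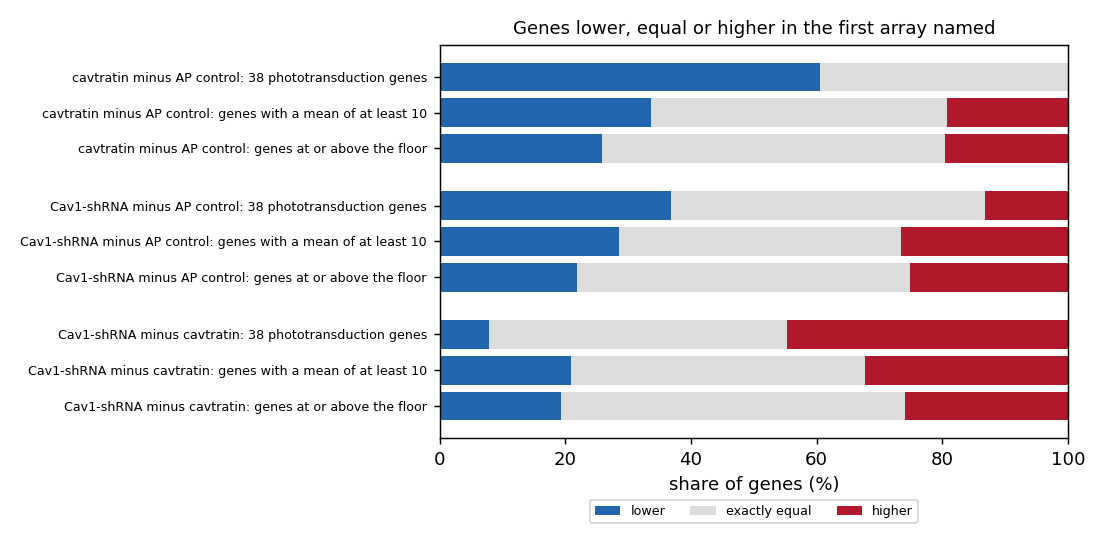
Share in percent of genes that were lower, exactly equal or higher in the first array named, for the 38 phototransduction genes, for genes with a mean of at least 10 and for all genes that reach the floor, in 3 comparisons. The top bar has 60.5% lower and no higher part, where the bars of all genes under it have 19.3% and 19.6% higher.

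In the Cav1-shRNA array, 14 of the 38 genes were lower than in AP control, 5 were higher and 19 were equal, beside shares of 21.9%, 25.2% and 53% among all genes reaching the floor. The median was 0 for rod, cone and shared genes alike. After centring, which added 0.058 to every gene of this comparison, 2 were lower and 36 higher, and after quantile normalization 19 were lower and 19 higher, so the direction of the set was not settled. The higher genes were Rcvrn at 0.063, Opn1sw at 0.020, Pde6a at 0.0064, Gnat2 at 0.0048 and Prph2 at 0.00094. Besides Arr3, the lowest were Pde6g at −0.091, Opn1mw at −0.048 and Pde6b at −0.047. Cav1 itself, the transcript the hairpin is named for, was at 8.26 on all 3 arrays. Equal values on all 3 arrays were held by 43.8% of genes with a mean at or above the floor. The deposited value was thus no lower with the hairpin, and whether the transcript itself was lowered was not tested.

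Compared directly, 17 of the 38 genes were higher in Cav1-shRNA than in cavtratin, 3 were lower and 18 were equal, against 25.9%, 19.4% and 54.7% of all genes reaching the floor. This comparison shares an array with each of the others. The differences of at least 0.1 were those of Rcvrn at 0.18, Opn1sw at 0.15, Guca1a at 0.13, Opn1mw at 0.12 and Gnat2 at 0.10, all higher, a call met by 6.07% of all genes reaching the floor, with 7.44% lower by as much. The 3 lower genes were Pde6g at −0.061, Arr3 at −0.033 and Rgs9bp at −0.0076. Of the 7 genes lower by at least 0.1 in cavtratin than in AP control, 6 had a Cav1-shRNA value within 0.1 of AP control, and Arr3 did not. This is not particular to the 7, which were picked by their cavtratin difference. Of all 38 members, 37 lay within 0.1 of AP control in Cav1-shRNA. Over all genes reaching the floor, 5.71% were lower and 8.25% higher there by at least 0.1.

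Other photoreceptor genes, from 4 lists that hold no member, mostly had differences of the same small size. Among 20 measured genes of the outer segment and cilium, 10 were lower in cavtratin than in AP control, 2 higher and 8 equal, with a median of −0.00099 that turned to 0.0057 after centring. Rd3, a regulator of guanylate cyclase, was lowest at −0.12. In Cav1-shRNA the extremes of this list were Rpgrip1, a protein of the connecting cilium, at −0.23, and Fscn2, a photoreceptor actin-bundling protein, at 0.21, which was also 0.26 above its cavtratin value. Among 13 transcription factors and regulators, 7 were lower in cavtratin, 0 higher and 6 equal, with a median of −0.022. Samd7, a photoreceptor regulator of gene silencing, had the largest difference of any photoreceptor gene looked at, with 10.93 in AP control, 10.54 in cavtratin and 10.70 in Cav1-shRNA, or −0.39 and −0.22 against AP control. Of 10 channel and synapse genes 4 were lower, 0 higher and 6 equal, and of 6 retinoid genes 2 were lower, 1 higher and 3 equal. These counts stand beside 25.9% lower and 19.6% higher among all genes reaching the floor, and they turn with the scaling. Centring gave 9 lower and 11 higher in the outer segment list, 7 and 6 in the transcription list, 4 and 6 in the channel and synapse list, and 2 and 4 in the retinoid list, whereas quantile normalization gave 19 and 1, 12 and 1, 10 and 0, and 5 and 1. Over all genes reaching the floor, centring left 23.9% lower and 76.1% higher. Quantile normalization left 80.05% lower and 19.8% higher, so mostly lower counts were general under that scaling. Rbp3, the retinoid carrier between photoreceptors and pigment epithelium, was 0.0030 higher.

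The lens and leukocyte marker lists held larger differences between these arrays than any phototransduction gene, and their part in the differences above was not tested. For all genes reaching the floor, 19.6% were higher and 25.9% lower in cavtratin than in AP control, and 25.2% and 21.9% in Cav1-shRNA. Lens markers were higher in cavtratin than in AP control in 13 of 16 genes and lower in 1, and their summed linear signal was 2075 in AP control, 9150 in cavtratin and 1881 in Cav1-shRNA, with 7, 10 and 7 of them at or above the floor. Neutrophil and monocyte markers were higher in 11 of 12 and lower in 1, with sums of 2733, 5678 and 3577, and 5, 9 and 6 of them at or above the floor on the 3 arrays. Microglia and macrophage markers were higher in 9 of 13, with sums of 2499, 4748 and 4042, and 10, 11 and 11 at or above the floor. In Cav1-shRNA, against AP control, 12 of 12 neutrophil and monocyte markers and 12 of 13 microglia and macrophage markers were higher. The medians of bipolar and ganglion cell markers were below 0 in cavtratin under every scaling, and as deposited they were −0.052 over 10 bipolar markers, where 7 were lower and 0 higher, and −0.078 over 9 ganglion cell markers, where 7 were lower and 0 higher. After centring, 6 bipolar markers were lower and 4 higher, and 7 ganglion cell markers were lower and 2 higher. The shares over all genes reaching the floor were then 23.9% lower and 76.1% higher. The amacrine and horizontal cell markers did not share this. Their median over 9 genes was 0 as deposited, where 4 were lower, 1 higher and 4 equal. It was 0.0067 after centring, with 3 lower and 6 higher, and −0.011 after quantile normalization. Muller glia markers split into 4 higher and 4 lower as deposited. All 10 bipolar and 9 Muller glia markers were at or above the floor on each array, as were the 38 phototransduction genes, so the defining markers of the labelled retina were present.

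**Figure D4:**
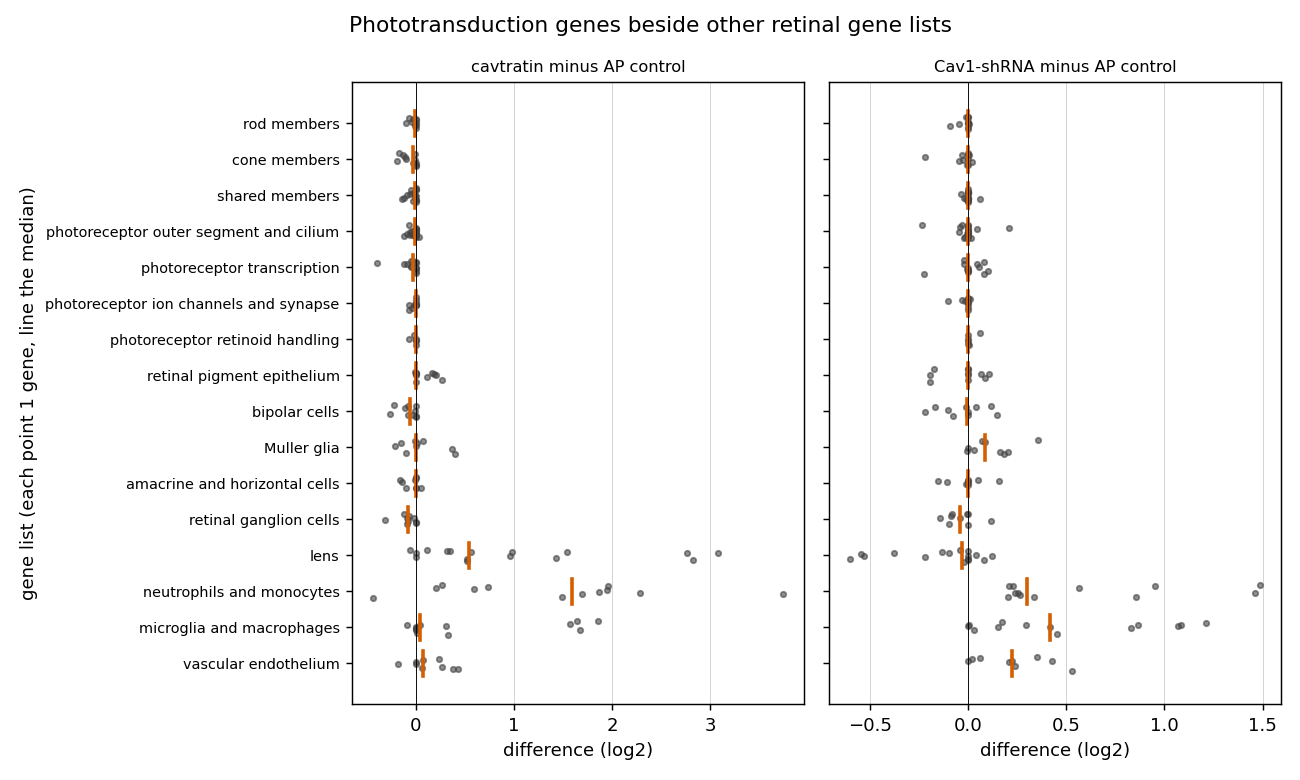
Differences on the log2 scale of each gene of the rod, cone and shared members and of 13 other lists, for cavtratin minus AP control on the left and Cav1-shRNA minus AP control on the right, with a line at each median and horizontal axes of different range. Photoreceptor genes stay within 0.40 of 0 in both panels, while lens genes reach 3.08 and neutrophil and monocyte genes 3.74 in cavtratin.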

How the data were processed

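The deposited values were taken to be log2, because the labels name no log base and the values ran from 1.88 to 13.42. The summarisation and normalization are not stated in the sources used. Per the labels' protocols, the authors pooled 5 to 6 retinae per array, extracted total RNA and hybridised biotin-labelled cDNA. Of 41345 probe sets, 23521 had 1 gene symbol in the platform annotation, 1814 several, and 16010 were unnamed here. Per gene the probe set with the highest mean was taken. Differences were taken as they stand, with ties within 1e-09, in Python 3.11.15 with pandas 2.3.3 and statsmodels 0.14.6. The number of arrays, 1 per group, limits the precision, and no test was run. Lists and members were chosen with earlier results of these data known. The rule for names asked for every member at least 0.25 apart, of which there were 0, both genes of each rod and cone paralog pair, and both cone opsins, with the rest given briefly. The counting was tested on simulated data. Promoter sequences are those of RefSeq, GRCm38.p6. Alternatives were centring, quantile normalization, the mean of all probe sets, a loess trend (span 0.3), other thresholds and floors, and list means.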

Additional observations from a re-analysis of the deposited data

How the results depend on the processing

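No paired analysis was possible because each group has 1 array and the groups share 1 replicate number. Leaving out a replicate was not possible either. No member was 2-fold apart under any scaling, floor or threshold of 1.5-fold to 3-fold, and each member and median moved by less than the SD of a probe set, 0.0892 to 0.118. Centring adds 1 amount to every gene of a comparison, 0.0067 to 0.058, which is below that SD. Most differences of members are also smaller than the SD, so this limit says little about how stable they are. Counts of direction depended on the scaling. For cavtratin minus AP control, 19 were higher and 0 equal after centring, and 6 higher and 0 equal after quantile normalization, while 7 were lower and 31 within the limit when only differences of at least 0.1 counted. For Cav1-shRNA minus AP control, centring gave 36 higher, 2 lower and 0 equal, quantile normalization 19 higher and 0 equal, loess 24 higher and 0 equal, and the limit of 0.1 left 0 higher, 1 lower and 37 within it. For Cav1-shRNA minus cavtratin, centring gave 37 higher, 1 lower and 0 equal, quantile normalization 34 higher and 2 equal, loess 31 higher, 7 lower and 0 equal, and the limit of 0.1 left 5 higher, 0 lower and 33 within it. The mean of all probe sets changed nothing, since each member had 1 probe set.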

Other observations

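Markers of the retinal pigment epithelium, which renews the chromophore for photoreceptors, had a median of −0.17 over 11 genes in Cav1-shRNA minus cavtratin, with 7 lower, 2 higher and 2 equal. Among all genes reaching the floor, 19.4% were lower and 25.9% higher. After centring, 7 of the markers were lower and 4 higher, with a median of −0.12, beside 10.9% lower and 89.1% higher over all genes. Rgr, a retinal G protein-coupled receptor, was lowest at −0.40, and Rlbp1, a retinaldehyde-binding protein shared with Muller glia, was highest at 0.11. Against AP control, 5 of the 11 were higher in cavtratin and 1 lower, and 3 were higher and 3 lower in Cav1-shRNA, each with a median of 0. Of all genes reaching the floor, 19.6% were higher and 25.9% lower in cavtratin, and 25.2% and 21.9% in Cav1-shRNA. Centring gave 11 higher and 0 lower markers in cavtratin, and 8 and 3 in Cav1-shRNA. The 9 markers of vascular endothelium had a median of 0.22 in Cav1-shRNA minus AP control, with 8 higher and 0 lower, and 0.080 in cavtratin minus AP control. The share higher among all genes reaching the floor was 25.2% in the first of these comparisons. There, centring gave 9 higher and 0 lower markers, with a median of 0.28.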
